A study of Equus caballus with 17 samples.

Results

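eca-miR-371-5p is the mature miRNA cut from the 5′ arm of the horse miR-371 hairpin, and it was chosen by name as 1 of the 274 annotated mature miRNAs in the table of small RNA counts. It had 1 row. The rule of choice used no measured value, though earlier results of these data were known when it was chosen. Small RNA was sequenced from horse (Equus caballus) testis labelled Infant (3 libraries), Pre-puber (3), Puber (3) and Adult (4), and from sperm (4). The labels name no treatment, genotype or age and leave unsaid whether the libraries of a stage represent different animals, so the p-values here reflect library-to-library spread, which may be technical. One title number covers 31a with 31b (Infant), and another 3a with 3b (Pre-puber). The material was bulk tissue or sperm, in which fewer cells of a type and less RNA per cell cannot be told apart.

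The miR-371 hairpin belongs to a compact miRNA cluster of placental mammals, known as miR-371 to miR-373 in human and as miR-290 to miR-295 in mouse. The cluster is a mark of pluripotent cells: it is abundant in embryonic stem cells and early embryos and is silenced as cells differentiate, as is the separate miR-302 cluster. In the testis it is known from primordial germ cells and from germ cell tumours, in which miR-371 released into blood serves as a marker. A miRNA guides a silencing complex to messenger RNAs by its seed, so the 5′ and 3′ arms of this hairpin, whose seeds differ, address different targets. In the horse RefSeq table (assembly TB-T2T), MIR371 lies on chromosome 10 directly beside MIR372, between the homeobox gene DPRX and NLRP12, a gene of the innate immune system. MIR302A, MIR302B, MIR302C, MIR302D and MIR367 lie together on chromosome 2, beside LARP7. Of these hairpins the annotated names of the count table held both arms of miR-371. The others are not analysed here, so the label of a pluripotency miRNA rests on background knowledge and cannot be checked against its usual companions.

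Total counts of annotated miRNAs, in units of M for 1000000 counts, ranged from 9.53 to 12.4 M in Infant, 8.11 to 13.1 M in Pre-puber, 3.96 to 6.04 M in Puber, 2.18 to 4.62 M in Adult and 1.48 to 2.26 M in Sperm. Depth therefore differed between the groups, and Infant libraries were among the deepest. The germ cell miRNAs miR-34b-5p, miR-34c, miR-449a and miR-449b summed to 40220 to 50440 CPM (counts per 1000000 annotated counts, scaled by TMM) in Adult and to 17.7 to 53.1 CPM in Infant. Stromal miRNAs (miR-145, miR-199a-5p and miR-199b-5p) summed to 14970 to 18820 CPM in Adult, and to 32.7 to 97.1 CPM, without TMM scaling, in Sperm. Pre-puber 14 stood apart from the other Pre-puber libraries in its germ cell miRNAs, at 3296 CPM against 45.1 in 3a and 80.4 in 3b.

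miR-371-5p was a scarce miRNA whose reads were concentrated in Pre-puber and Puber testis. It had 566 reads over the 17 libraries. Pre-puber 3a, 3b and 14 held 208, 77 and 78 reads, and Puber 10, 11 and 19 held 36, 35 and 46. Adult 13, 20, 33 and 4 held 8, 12, 15 and 38 reads. Infant 31a, 31b and 30 held 1, 6 and 0 reads. Reads in Sperm 1, 2, 3 and 4 numbered 2, 1, 3 and 0. The near absence in Infant was therefore seen in libraries of 9.53 M counts or more, whereas that in Sperm was seen in libraries of 2.26 M or fewer.

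As CPM of its own library's annotated counts, without further scaling, miR-371-5p averaged 11.6 ± 3.71 CPM across Pre-puber libraries (SD, n = 3) and 0.197 ± 0.255 across Infant ones (n = 3). Puber averaged 8.44 ± 2.89 CPM (n = 3), Adult 5.04 ± 2.99 (n = 4) and Sperm 0.858 ± 0.858 (n = 4). On this scale the order of the means was Pre-puber, Puber, Adult, Sperm and Infant. Puber overlapped with Pre-puber and with Adult, and Sperm overlapped with Infant. Where it was most abundant it still lay low among the miRNAs of the library, at position 131 of 205 annotated miRNAs with a read in Pre-puber 3a, 139 of 199 in 3b and 138 of 207 in 14. In Adult it lay at positions 150 to 173, and in Infant 31a and 31b at 177 of 182 and 168 of 184. The count of 0 in Infant 30 allows a level of up to 0.312 CPM and that in Sperm 4 up to 1.92 CPM, taking 3 reads as the limit. These limits, and the counting intervals below, cover counting error only.

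**Figure D1:**
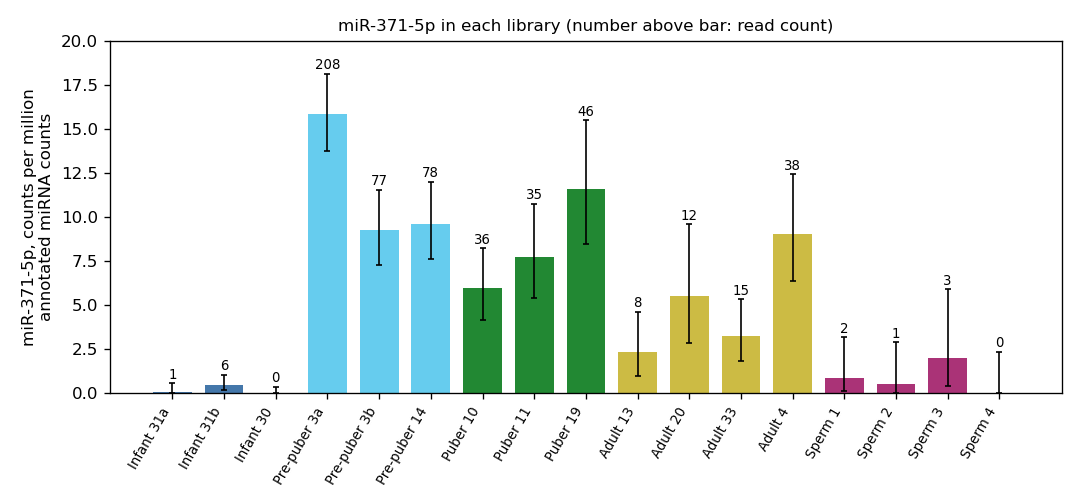
miR-371-5p in each of the 17 libraries, as CPM of annotated counts (vertical axis, no further scaling), with bars coloured by group, 95% exact Poisson intervals and the read count above each bar. The 3 Pre-puber libraries lie between 9.26 and 15.9 CPM and the 3 Infant libraries at or below 0.485.

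Over the 4 testis stages miR-371-5p changed (adjusted p = 0.00177, edgeR quasi-likelihood F test, Benjamini-Hochberg over 184 miRNAs). The background was high, since 47.8% of the tested miRNAs were called over the stages. It was 1 of 10 called miRNAs (11.4% of 88) with their highest mean in Pre-puber, beside 32 with it in Infant, 14 in Puber and 32 in Adult. Over all 184 tested miRNAs the highest mean lay in Pre-puber for 18.5%, in Infant for 35.3%, in Puber for 16.3% and in Adult for 29.9%. The other 9 called miRNAs with their highest mean in Pre-puber were miR-150, miR-182, miR-183, miR-193a-5p, miR-196b, miR-205, miR-450b-5p, miR-491-5p and miR-96. Levels from here to the sperm comparison are TMM-scaled CPM of the 13 testis libraries. On that scale Pre-puber averaged 11.8 ± 1.95 CPM (SD, n = 3) and Infant 0.299 ± 0.372 (n = 3). Puber averaged 7.76 ± 0.949 CPM (n = 3) and Adult 4.00 ± 2.49 (n = 4).

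The step from Infant to Pre-puber had the largest fold change of the 6 testis comparisons. Infant 31a, 31b and 30 stood at 0.180, 0.716 and 0 CPM, and Pre-puber 3a, 3b and 14 at 14.0, 10.4 and 10.9 CPM. The groups did not overlap, and the lowest Pre-puber library lay far above the highest Infant one. The rise was 35.9-fold, a log2 fold change of 5.17 ± 0.85 SE, with an adjusted p of 0.00202 by edgeR. Across the 184 tested miRNAs the median log2 fold change was 0.16. In this comparison 23.9% of miRNAs were called and 35.9% had no overlap between the groups. By its log2 fold change miR-371-5p was in position 13 of 184.

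The Infant libraries were deep enough to have shown such a level. At the Pre-puber mean level the Infant libraries 31a, 31b and 30 would have held 65.5, 98.9 and 94.3 reads, against the 1, 6 and 0 seen. Summed over libraries, 363 Pre-puber reads stood against 7 Infant reads, a ratio of scaled levels of 38.8 (exact 95% counting interval 18.6 to 97.1). The size of the fold rested on 1 Infant library, since 31b held 6 of the 7 reads. Without Infant 31b the log2 fold change was 6.97, and without Infant 30 it was 4.57, with the call kept in each. Without Pre-puber 14 it was 5.22 (adjusted p = 0.00149, edgeR, with adjusted p from 0.00144 to 0.00726 over the libraries left out in turn).

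The levels of Puber and Adult testis also lay above those of Infant. Puber 10, 11 and 19 stood at 6.93, 7.55 and 8.80 CPM, all above the 3 Infant libraries. miR-371-5p was 23.6-fold higher in Puber than in Infant (log2 fold change 4.56 ± 0.84 SE, adjusted p = 0.00100, edgeR), where 36.4% of miRNAs were called and 51.1% had no overlap. Adult 13, 20, 33 and 4 stood at 1.65, 5.76, 2.08 and 6.50 CPM, again all above Infant. It was 11.9-fold higher in Adult than in Infant (log2 fold change 3.58 ± 0.81 SE, adjusted p = 0.00243, edgeR), where 51.6% of miRNAs were called and 50.0% had no overlap. Both folds share the Infant libraries with the one above. Without Infant 31b the log2 fold changes were 6.38 and 5.38, and without Infant 30 they were 3.98 and 2.97. For Adult against Infant the log2 fold change was 2.96 without Adult 4. With predicted hairpins in the fit, Adult against Infant was no longer called (log2 fold change 1.64, adjusted p = 0.134), while the median entry moved by 5.64.

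**Figure D2:**
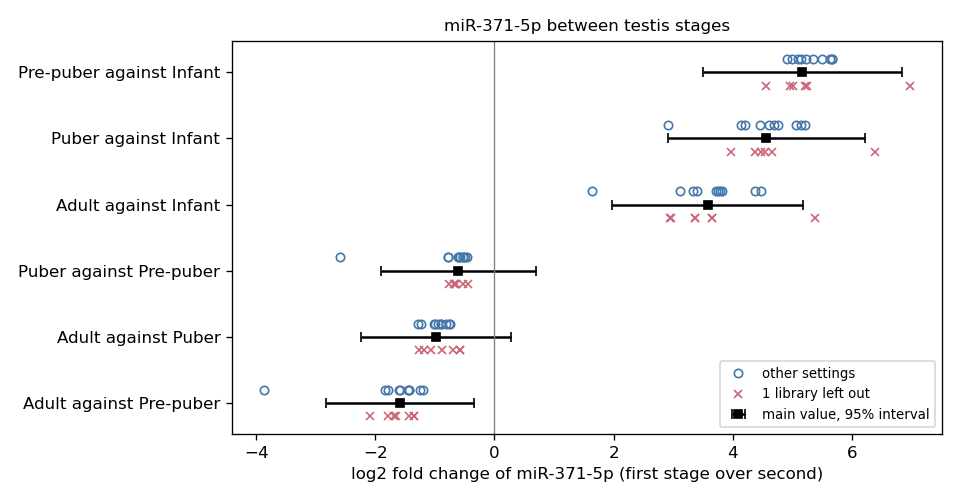
Log2 fold change of miR-371-5p (horizontal axis) for the 6 pairs of testis stages, with the main edgeR value and its approximate 95% interval (squares), the values under other settings (circles) and those with 1 library left out (crosses). The 3 comparisons with Infant lie above 0 at every setting shown and the other 3 below 0.

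After Pre-puber the means were lower at each later stage, but no test of a single step was passed. From Pre-puber to Puber the log2 fold change was -0.60 ± 0.67 SE (approximate 95% interval -1.91 to 0.70, adjusted p = 0.685, edgeR). On the TMM scale the 3 Puber libraries all lay below the 3 Pre-puber ones, as did 1 group against the other for 26.6% of tested miRNAs, and 1.09% were called. Without TMM scaling the groups overlapped, with Puber at 5.96 to 11.6 CPM and Pre-puber at 9.26 to 15.9. With predicted hairpins in the fit the log2 fold change was -2.59 (adjusted p = 0.0589, edgeR), where the median entry moved by 1.06. A difference between these stages is therefore not shown, and the interval of the main estimate reaches to both sides of 0.

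From Puber to Adult the log2 fold change was -0.98 ± 0.64 SE (approximate 95% interval -2.24 to 0.27, adjusted p = 0.415, edgeR). edgeR called 0 of 184 miRNAs here (0.0%), with 34 at an unadjusted p under 0.05, DESeq2 called 10 and limma-voom 0. The groups did not overlap for miR-371-5p or for 23.9% of tested miRNAs, but they did overlap without scaling, with DESeq2 size factors and in the deposited RPM. On the TMM scale the Adult libraries fell into a lower pair, 13 and 33, and a higher pair, 20 and 4. There the higher pair lay just below the lowest Puber library. Without TMM scaling, Adult 13, 20, 33 and 4 stood at 2.35, 5.51, 3.25 and 9.06 CPM. Adult 4 then lay above Puber 10 and 11, at 5.96 and 7.745 CPM. Without Adult 13 or Adult 33 the log2 fold change was -0.58 or -0.59.

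Over both steps, Adult stood below Pre-puber with a log2 fold change of -1.59 ± 0.63 SE (approximate 95% interval -2.83 to -0.35). The adjusted p was 0.0740 by edgeR, which misses the threshold, and 0.0377 by DESeq2 and 0.0214 by limma-voom, which pass it. All 4 Adult libraries lay below all 3 Pre-puber libraries with each of the 4 scalings of annotated counts and in the deposited RPM (reads per 1000000 reads of all entries). The gap was narrow without scaling, at 9.06 CPM in Adult 4 (95% exact Poisson interval 6.41 to 12.4) and 9.26 in Pre-puber 3b (7.31 to 11.6). In the deposited RPM these libraries stood at 6.67 and 6.97. Of the tested miRNAs, 27.7% were called in this comparison and 34.2% had no overlap. Without Adult 4 the log2 fold change was -2.08. The order of the means, Pre-puber over Puber over Adult over Infant, was the same with each of these scalings and in the deposited RPM.

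The stage means of miR-371-5p ran in another order than those of the miRNAs of meiotic and later germ cells. These are known for their abundance in spermatocytes and spermatids. miR-34b-5p, miR-34c, miR-449a and miR-449b, set beside it as a list, summed to 53.1, 30.0 and 17.7 CPM in Infant 31a, 31b and 30, and to 11950 to 22810 CPM in Puber. Pre-puber 3a and 3b, at 45.1 and 80.4 CPM, lay near the Infant range for these miRNAs, yet held 14.0 and 10.4 CPM of miR-371-5p. Pre-puber 14, with 3296 CPM of germ cell miRNAs, held 10.9 CPM of miR-371-5p, within the range of the other libraries of its stage. From Infant to Pre-puber 3 of the 4 germ cell miRNAs rose (edgeR, median log2 fold change 4.64), as miR-371-5p did. Of all 184 tested miRNAs, 29 rose and 15 fell in that comparison. Without Pre-puber 14, an alternative chosen after seeing the data, 0 of the 4 germ cell miRNAs were called. Their median was then 0.88, while miR-371-5p was still called at 5.22. From Pre-puber to Adult all 4 germ cell miRNAs rose (median log2 fold change 5.30, and 9.32 without Pre-puber 14), beside the -1.59 of miR-371-5p. In that comparison 23 of all 184 tested miRNAs rose and 28 fell.

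**Figure D3:**
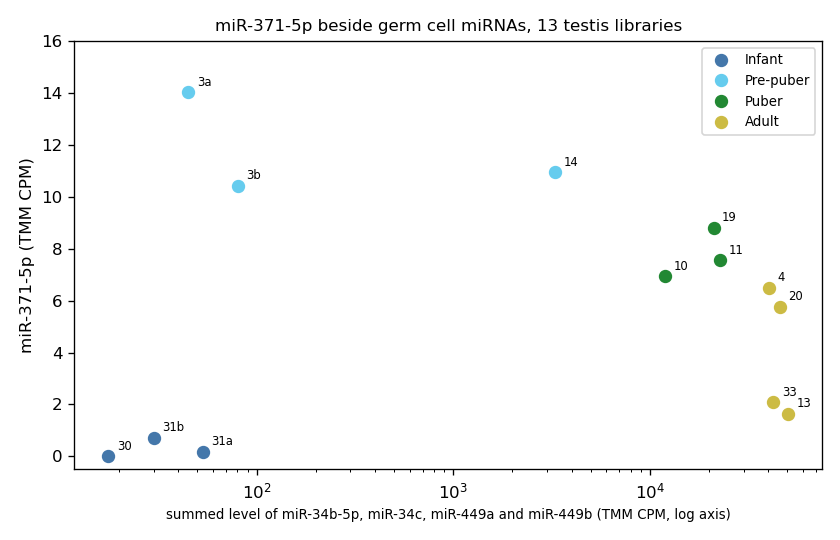
miR-371-5p (vertical axis, TMM CPM) against the summed level of miR-34b-5p, miR-34c, miR-449a and miR-449b (horizontal log axis, TMM CPM) in the 13 testis libraries, coloured by stage and marked with the library number. Pre-puber 3a, 3b and 14 lie at 10.4 to 14.0 CPM of miR-371-5p although their germ cell miRNAs range from 45.1 to 3296 CPM.

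Lists of miRNAs of other cell types were read in the same way. Of 5 tested miRNAs reported in undifferentiated spermatogonia (miR-106a, miR-135a, miR-146a, miR-20a and miR-21, the most abundant), 2 rose and 1 fell from Infant to Pre-puber, with a median log2 fold change of 0.15 beside 0.16 for all tested miRNAs. None of 3 stromal, 4 blood cell or 1 endothelial miRNA was called in that comparison, where 29 of all 184 tested miRNAs rose and 15 fell. The summed stromal level was 32330 to 51210 CPM in Infant and 31500 to 37770 in Pre-puber, and the summed blood cell level was 1064 to 6507 and 970 to 2749 CPM. From Pre-puber to Adult 2 of 3 stromal, 1 of 4 blood cell, 1 of 5 spermatogonial and 0 of 1 endothelial miRNAs fell and none of them rose, where 28 of all 184 tested miRNAs fell and 23 rose. The summed stromal level in Adult was 14970 to 18820 CPM. The part of these cell types in the level of miR-371-5p was not tested.

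The 6 tested miRNAs with the stage profile most like that of miR-371-5p were miR-514b, miR-182, miR-874, miR-9086, miR-8971 and miR-20a. Likeness was the root-mean-square difference of log2(mean CPM + 1) over the 4 testis stages after centring, and it was 0.437 for miR-514b, 0.529 for miR-182, 0.604 for miR-874, 0.62 for miR-9086, 0.641 for miR-8971 and 0.667 for miR-20a. The median over all tested miRNAs was 1.38. miR-514b, of the X-linked miR-506 family, was likewise scarce, at 0.144 ± 0.129 CPM in Infant (SD, n = 3) and 4.67 ± 4.52 in Pre-puber (n = 3). Its Pre-puber libraries spread from 1.35 CPM in 3b to 9.82 in 14, where those of miR-371-5p spread from 10.4 to 14.0.

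miR-182, of the co-transcribed miR-183/96/182 cluster, had its highest mean in Pre-puber too, at 236 ± 160 CPM (SD, n = 3), with 147 ± 26.2 in Puber (n = 3). Its means of 41.8 ± 28.7 CPM in Infant (n = 3) and 58.3 ± 42.4 in Adult (n = 4) came from overlapping libraries, with Infant 31a at 72.0 CPM above 3 of the 4 Adult libraries. miR-874 and miR-9086 had theirs in Puber, at 19.3 ± 4.51 and 14.3 ± 4.33 CPM (n = 3 each). miR-8971 kept a level of 7.68 ± 1.73 CPM in Adult (n = 4), near its Puber mean of 8.58 ± 2.04 (n = 3). miR-20a, of the growth-linked miR-17-92 cluster, which is also on the spermatogonia list, was far more abundant, at 520 ± 85.2 CPM in Infant (n = 3) and 1753 ± 869 in Pre-puber (n = 3), and had its highest mean in Adult. The choice by likeness favours miRNAs with a low Infant mean, since that is where miR-371-5p departs most from its own mean, and the order of the later stages differed among the 6.

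**Figure D4:**
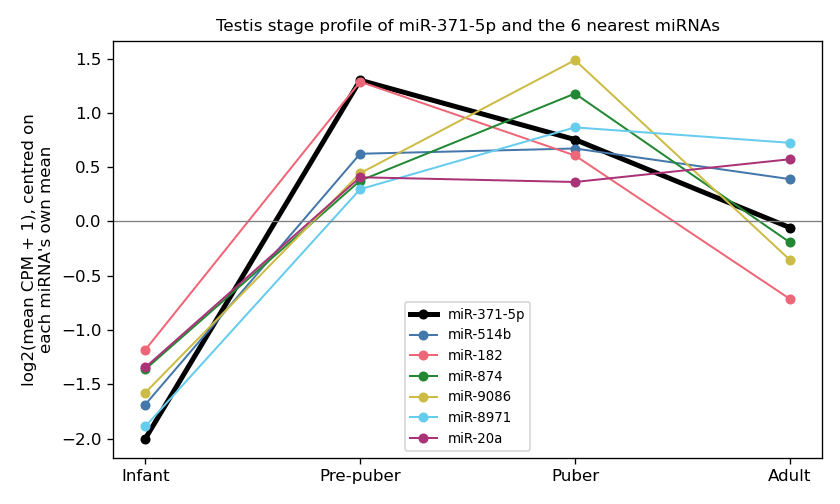
Stage means of miR-371-5p (thick black line) and of the 6 miRNAs with the nearest profiles, as log2(mean TMM CPM + 1) centred on each miRNA's own mean (vertical axis), over the 4 testis stages. All 7 lines are lowest in Infant, and those of miR-371-5p and miR-182 are highest in Pre-puber.

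In sperm miR-371-5p had 0 to 3 reads a library, and its difference from Adult passed the threshold only without scaling beyond the total. The 8 Sperm and Adult libraries were scaled together, and miR-371-5p did not pass the filter on low counts, so it was compared by an exact permutation test. Sperm 1, 2, 3 and 4 stood at 1.46, 0.817, 3.70 and 0 CPM, and Adult 13, 20, 33 and 4 at 1.28, 3.88, 1.41 and 5.61 CPM. Sperm 1 and 3 lay within the Adult range, so the groups overlapped. For 74.7% of the tested miRNAs the groups did not overlap. The means were 1.49 ± 1.59 CPM in Sperm (SD, n = 4) and 3.04 ± 2.09 in Adult (n = 4), a log2 ratio of -1.03 (exact two-sided permutation p = 0.257). The smallest p that 4 against 4 libraries allow is 0.0286.

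At the TMM-scaled Adult mean, Sperm 1, 2, 3 and 4 would have held 4.2, 3.7, 2.5 and 2.3 reads, against 2, 1, 3 and 0 seen. The counting ratio on that scale was 0.529, with a 95% interval of 0.188 to 1.21. At the Adult mean without TMM they would have held 11.4, 9.7, 7.5 and 7.9 reads, more than were seen in each library. On that scale the Sperm mean of 0.858 CPM stood against 5.04 CPM in Adult with no overlap, a log2 ratio of -2.55 (exact two-sided permutation p = 0.0286). The share of all tested miRNAs without overlap was not counted on that scale. It was 74.7% with TMM, so a lack of overlap was common between these groups. For miR-371-5p the groups overlapped with DESeq2 size factors, upper quartile scaling and predicted hairpins in the fit. The log2 ratios were then -1.725, -1.256 and -2.138 (exact two-sided permutation p = 0.143, 0.2 and 0.0571). The joint TMM factors lay between 0.484 and 0.639 in Sperm and between 1.42 and 2.30 in Adult. Sperm and testis also differed in their RNA extraction, per the labels, so material and extraction cannot be told apart.

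Of the 2 arms of the hairpin, the 5′ arm gave nearly all the testis reads. miR-371-3p, the arm whose seed resembles those of the miR-302 family, had 8 of 568 reads of both arms in testis, 1.41% with a 95% exact binomial interval of 0.61 to 2.76%. In Pre-puber it had 5 of 368 reads, 1.36% (0.443 to 3.14%), with 2, 0 and 3 in 3a, 3b and 14. In Puber it had 1 of 118 reads, in Adult 1 of 74 and in Infant 1 of 8. It did not pass the filter on low counts, so its level was not compared between stages.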

How the data were processed

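The deposited table gave whole read counts of the authors for 1763 entries in 17 libraries, of which 302 were annotated miRNAs, and a deposited RPM column for each library. Each RPM value equalled the count over the column total within 0.005 RPM. The submitters' processing notes name Trimmomatic and the build EquCab3.0, while for the aligner and counter the sources used here give no name. Columns were matched to libraries by title number. Adult 4 and Sperm 4 were told apart by prefix, an inference. For each of 274 mature miRNAs the entry with the highest total was kept.

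Testis libraries were fitted together with edgeR 4.0.16 in R 4.3.3 (filterByExpr, TMM, quasi-likelihood F tests, Benjamini-Hochberg adjusted p under 0.05). Standard errors were derived from F and are approximate. Sperm and Adult were compared by an exact permutation test (scipy 1.17.1). Alternatives used DESeq2 1.42.0, limma 3.58.1, other scalings, filters and libraries. The fits were tested on simulated data. The miRNA and the lists were chosen with earlier results of these data known.

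Named were miR-371-5p, its other arm, the lists, and the 6 tested miRNAs of nearest stage profile. The planned search for miRNAs of the same seed needs a sequence table and was not run. The lists of gonadal soma (miR-202) and of other pluripotency miRNAs had no annotated entry used here.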

Additional observations from a re-analysis of the deposited data

How the results depend on the processing

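The comparisons of Pre-puber and Puber with Infant, and the test over the 4 stages, kept their call under every alternative run. Leaving out 1 library gave log2 fold changes of 4.57 to 6.97, 3.98 to 6.38 and, for Adult against Infant, 2.96 to 5.38, each called. Adult against Infant (3.58) ended with all entries in the fit (1.64, adjusted p = 0.134), which moved the median of all entries by 5.64. With all entries and no scaling beyond the total, chosen after seeing the data, it was 4.38 and called. Adult against Pre-puber (-1.59) was called by DESeq2 (-1.44), limma-voom (-1.83) and with all entries in the fit (-3.86), and gave -2.08 to -1.34 without 1 library. The fit of all entries moved their median by 1.23 in this comparison. With all entries and no scaling beyond the total, Adult against Pre-puber was -1.26 and not called (adjusted p = 0.138, edgeR). Puber against Pre-puber (-0.76 to -0.44 without 1 library) and Adult against Puber (-1.26 to -0.58) were called at no setting run, with all entries in the fit included (-2.59 and -1.28). Sperm against Adult (log2 ratio -1.03) passed the threshold without scaling beyond the total (-2.55). Without 1 library its log2 ratio was -1.97 to -0.55. With 3 libraries against 4 the exact permutation test cannot pass the threshold whatever the counts, so those settings decide nothing about the call. DESeq2 and limma-voom tests of Sperm against Adult were not run because miR-371-5p did not pass the filter. By edgeR it was -1.17 with no filter and -1.63 with all 17 libraries in 1 fit.

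The number of called miRNAs moved by over 1.5 times in some comparisons. For Pre-puber against Infant it was 44, and 26 with those groups alone and 29 with libraries of 1 title number summed. For Puber against Pre-puber it was 2, and 30 without Pre-puber 14, 0 to 1 without any other library, and 0 with those groups alone or with summed libraries. With other scalings it was 7 to 9, by DESeq2 16 and by limma-voom 19. For Adult against Puber it was 0, and 10 by DESeq2, 19 with those groups alone and 7 without Puber 19 or Adult 20. For Adult against Pre-puber it was 51, and 33 with those groups alone, 29 with summed libraries and 25 to 70 without 1 library. With all entries in the fit the 6 stage comparisons called 0 to 832 entries. No paired analysis was possible because the groups compared share at most 1 title number.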

Other observations

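In pooled reads, looked at after their values were seen, the 3′ arm had a larger share in sperm than in testis. Over libraries the difference from Adult missed the threshold, as given below. miR-371-3p had 1, 3, 0 and 2 reads in Sperm 1, 2, 3 and 4, against 2, 1, 3 and 0 of miR-371-5p, so 6 of 12 reads came from the 3′ arm (50.0%, 95% exact binomial interval 21.1 to 78.9%). In Adult 1 of 74 did (1.35%, 0.0342 to 7.30%), and in Infant 1 of 8 (12.5%, 0.316 to 52.65%). Over libraries the share of the 3′ arm was 52.1 ± 44.3% in Sperm (SD, n = 4) and 1.56 ± 3.13% in Adult (n = 4), higher in 3 of 4 Sperm libraries than in any Adult library, with an exact two-sided permutation p = 0.143 (adjusted p = 0.143 over the share and the level), which misses the threshold.

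The 6 miRNAs with the nearest testis profile parted in sperm. miR-514b and miR-9086 had 0 reads in all 4 Sperm libraries, which allows up to 0.416 CPM over the group, and stood at 5.29 ± 3.06 and 3.96 ± 2.14 CPM in Adult (SD, n = 4, no TMM scaling). miR-182, miR-874, miR-8971 and miR-20a stood at 144 ± 82.2, 14.3 ± 10.7, 11.0 ± 3.04 and 2441 ± 1557 CPM in Sperm (n = 4). miR-371-5p, with 0 to 3 reads a library, lay between these.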
